A study of Homo sapiens with 14 samples.

Results

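The genes described here are 30 genes of cholesterol and fatty acid synthesis, of the sensing of sterols and of sterol transport, chosen by symbol. Of these, 29 were measured, among 15544 genes tested in all, and FDFT1 was not analysed here. Each gene is represented by the brightest of its probes. The 29 genes have 45 probes, 9 of them have several, and 28 were detected on all 14 arrays. The exception was STARD4, whose probe was detected on 8 arrays, so its values lie at the edge of background.

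The study measured total RNA of 2 human melanoma cell lines on Illumina bead arrays. Both lines carry a BRAF mutation per the labels. WM266-4 cells received FOXD1 siRNA 1 (3 arrays), a second reagent labelled FOXD1 siRNA 2 (3 arrays) or a negative control siRNA of high GC content (3 arrays). A375 cells received a FOXD1 plasmid for overexpression (3 arrays) or its empty vector backbone (2 arrays), and their labels speak both of transfection and of transduction. The labels give no time after treatment, and nothing in them states whether each replicate was its own culture. The p-values therefore measure the spread between these arrays, which may be technical.

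Cells build cholesterol from acetyl-CoA through mevalonate, isoprenoid diphosphates, squalene and lanosterol. When the endoplasmic reticulum holds little sterol, the escort protein SCAP carries the SREBP transcription factors, made from SREBF1 and SREBF2, to the Golgi, where they are cut and released to switch on these enzymes. The INSIG proteins hold SCAP back when sterols are plentiful. Oxidised sterols activate LXR receptors, which switch on the sterol exporters ABCA1 and ABCG1. SREBF1 and LXR also drive fatty acid synthesis.

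All values are log2 of the background-corrected, quantile-normalised signal of 1 probe, so a difference of 1 is a doubling and levels are not compared between genes. Differences come from 1 limma fit of the 5 groups, and a gene is called changed where its p, adjusted by the Benjamini-Hochberg method across the 15544 genes, is under 0.05. FOXD1 itself was at 4.34, 4.35 and 4.58 with siRNA 1, against 5.60, 5.68 and 6.16 with control siRNA, a difference of -1.39 (limma adjusted p = 7.99e-05). Its probe was detected on 1 of 3 siRNA 1 arrays, so the siRNA 1 level lies at the edge of background and the size of the difference is uncertain. FOXD1 was at 5.81 to 6.01 in the arrays labelled siRNA 2 and was not lower there (0.10, 95% confidence interval -0.25 to 0.45, adjusted p = 0.802). A label of these arrays names FOXD2, and FOXD2 differed from control by -0.04 there (adjusted p = 0.923). This group is therefore named by its label, and its comparisons are not with cells of lower FOXD1 signal. In A375, FOXD1 was at 7.52 to 7.94 with overexpression and at 7.30 and 7.33 with vector (0.42, adjusted p = 0.187).

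The percentage of probes detected was between 46% and 50.4% on every array. Overexpression replicate 3 stood apart within its group, with a root mean square deviation from the group mean of 0.297, against 0.185 to 0.237 for the other arrays. The deposited intensities of empty vector replicate 1 repeat those of overexpression replicate 3, so the authors' processed values were used for that array. Of 7 markers of the melanocyte lineage 6 were measured, and PMEL, TYR, SOX10 and MITF were detected on all arrays. MLANA was detected on 0 of 3 control siRNA arrays and on all A375 arrays.

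The reagents are shown first, since the groups are named by them. Per the labels, the siRNAs had the sequences below, with the strand not stated.
FOXD1 siRNA 1: uacugcuaggauuuccaauuguuaa
FOXD1 siRNA 2: gccgaggaaacagacaucgacgugg
Both are 25 bases long.

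The promoters of LSS, ABCA1, PMVK and SCAP are shown because these genes had higher signal with each siRNA reagent in the comparisons below. Each gene has 1 promoter in the RefSeq table (GRCh38.p14), and the 250 bases before its start are given 5′ to 3′ on the gene's strand, which is the minus strand for all of them. Capitals mark matches on either strand. The motif GGGCGG is the GC box, which binds the general activator SP1 and is common in promoters without a TATA sequence. The CCAAT box is searched in the letters of its name and binds NF-Y, a partner of the SREBP factors. The E-box, CACGTG, is read by basic helix-loop-helix proteins, the family to which the SREBP factors belong. The core TGTTTAC is typical of forkhead proteins, the family of FOXD1. A sterol regulatory element and the spaced direct repeat bound by LXR were searched as well.
LSS, chr21:46228775-46229024: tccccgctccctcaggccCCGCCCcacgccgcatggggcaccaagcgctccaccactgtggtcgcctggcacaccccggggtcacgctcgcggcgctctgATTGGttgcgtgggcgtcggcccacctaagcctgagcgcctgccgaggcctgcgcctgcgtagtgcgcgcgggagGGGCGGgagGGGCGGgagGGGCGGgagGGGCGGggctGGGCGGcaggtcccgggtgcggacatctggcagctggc
ABCA1, chr9:104928156-104928405: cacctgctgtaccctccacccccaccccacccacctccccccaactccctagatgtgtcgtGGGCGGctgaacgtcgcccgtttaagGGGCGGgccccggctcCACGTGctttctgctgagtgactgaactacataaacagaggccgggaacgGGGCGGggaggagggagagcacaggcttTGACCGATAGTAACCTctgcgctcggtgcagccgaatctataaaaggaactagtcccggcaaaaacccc
PMVK, chr1:154936720-154936969: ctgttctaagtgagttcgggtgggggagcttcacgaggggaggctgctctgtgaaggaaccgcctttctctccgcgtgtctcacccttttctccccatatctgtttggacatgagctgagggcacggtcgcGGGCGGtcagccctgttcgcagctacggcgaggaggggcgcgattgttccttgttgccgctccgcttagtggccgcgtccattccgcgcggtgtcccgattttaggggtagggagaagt
SCAP, chr3:47475942-47476191: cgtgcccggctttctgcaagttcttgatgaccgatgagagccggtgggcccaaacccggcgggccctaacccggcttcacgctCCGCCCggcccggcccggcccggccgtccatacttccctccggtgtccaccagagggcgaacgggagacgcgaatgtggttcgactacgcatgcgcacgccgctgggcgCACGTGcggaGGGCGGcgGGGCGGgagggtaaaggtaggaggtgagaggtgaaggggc
The LSS promoter holds 6 GC boxes and a CCAAT box. The ABCA1 promoter holds 3 GC boxes, an E-box and the LXR repeat, which ends 54 bases before the start. The PMVK promoter holds 1 GC box, and the SCAP promoter holds 3 and an E-box.

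Of the 30 genes, 26 have an entry among the 35116 promoters of the table, with 35 promoters in all, and a gene is counted where any of its promoters has a match. A GC box lies in 25 of these genes and in 91.4% of their promoters, against 42.6% of all promoters. A CCAAT box lies in 19 genes and in 65.7% of their promoters, against 32% of all. The LXR repeat lies in ABCA1 alone of the 26, against 0.0797% of all promoters, and the sterol regulatory element, searched in a single strict spelling, in SREBF2 alone, against 0.125%. The forkhead core lies in none of the 26, against 2.98% of all promoters. At so small a share few matches are likely among 35 promoters, so nothing is concluded from their absence. FASN, SQLE, FDFT1 and ABCG1 have no entry and were not searched. An E-box lies in ABCA1, INSIG1, SC5D and SCAP and in 14.3% of the promoters of the 26 genes, against 6.34% of all. No match in the 4 promoters overlaps another. A match is a description of the letters and shows no binding.

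The first comparison asks which sterol and fatty acid genes differ between siRNA 1 and control siRNA in WM266-4. Of the 29 genes 4 rose and 1 fell, while 6.82% of all genes rose and 6.48% fell (13.3% in all). The genes that rose lie at different steps: PMVK in the mevalonate pathway, LSS in ring closure, SCAP in sterol sensing and ABCA1 in export. The gene that fell, IDI1, makes the allylic isoprenoid that FDPS extends. By role, 1 of 6 mevalonate pathway genes rose and 1 fell, and 1 of 10 genes from squalene to cholesterol, 1 of 5 sterol sensing genes and 1 of 4 transport genes rose, while 0 of 4 fatty acid synthesis genes were called. The median difference of the 29 genes was -0.06, against 0.01 over all genes.

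LSS encodes lanosterol synthase, which folds oxidised squalene into the first sterol of the pathway. Its signal was 8.81, 8.69 and 8.48 with siRNA 1, against 7.25, 7.37 and 7.29 with control siRNA. All siRNA 1 arrays lay above all control arrays, and LSS was 2.56-fold higher (log2 difference 1.35, SE 0.198, limma adjusted p = 0.000451). The value rests on 1 of 3 LSS probes: the others were detected on 4 of 14 arrays each and differed by 0.12 and -0.40. With the mean of the probes the difference was 0.36 and not called (adjusted p = 0.189).

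ABCA1 encodes the pump that loads cholesterol onto apolipoproteins at the cell surface. Its signal was 10.15, 10.11 and 10.35 with siRNA 1, against 8.95, 8.88 and 9.38 with control siRNA. The groups did not overlap, and control replicate 3 was the highest control array. ABCA1 was 2.19-fold higher (1.13, SE 0.194, limma adjusted p = 0.00151). The related exporter ABCG1 was at 5.06 to 5.71 with siRNA 1 and at 4.84 to 5.08 with control siRNA. It overlapped by 1 array and was not called (0.49, limma adjusted p = 0.164). Another ABCG1 probe went the other way (-0.41) and was detected on 3 control arrays and 0 siRNA 1 arrays. In bulk RNA, a change in the share of cells with a transcript and a change of it per cell cannot be told apart.

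PMVK encodes phosphomevalonate kinase, a middle step of the mevalonate pathway. Its signal was 8.21, 8.22 and 8.13 with siRNA 1, against 7.59, 7.28 and 7.09 with control siRNA. The siRNA 1 arrays lay close together and all above the control arrays, which spread more widely. PMVK was 1.82-fold higher (0.86, SE 0.154, limma adjusted p = 0.002).

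SCAP, the escort of the SREBP factors, was at 10.52, 10.43 and 10.53 with siRNA 1, against 9.69, 9.48 and 9.99 with control siRNA. It was higher on every siRNA 1 array, by 1.71-fold (0.77, SE 0.15, limma adjusted p = 0.00339). The SREBP genes themselves were not called: SREBF1 differed by 0.42 (adjusted p = 0.254) and SREBF2 by 0.19 (adjusted p = 0.675). SREBF1 overlapped with control, since siRNA 1 replicate 1 was at 8.82 and control replicate 2 at 9.01.

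IDI1, the isomerase that turns isopentenyl diphosphate into dimethylallyl diphosphate, was at 8.33, 8.44 and 8.34 with siRNA 1, against 9.43, 9.51 and 9.27 with control siRNA. The groups lay far apart, and IDI1 was 2.04-fold lower (-1.03, SE 0.144, limma adjusted p = 0.000332). Of the genes called here, PMVK, IDI1, SCAP and ABCA1 were called under all 26 other settings tried, and LSS under 25 of them. LSS lost its call with the mean of its probes. PMVK, IDI1, SCAP and ABCA1 have a single probe each, so that setting could not change their values. Leaving out an array of another group changes only the shared estimate of the spread.

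**Figure D1:**
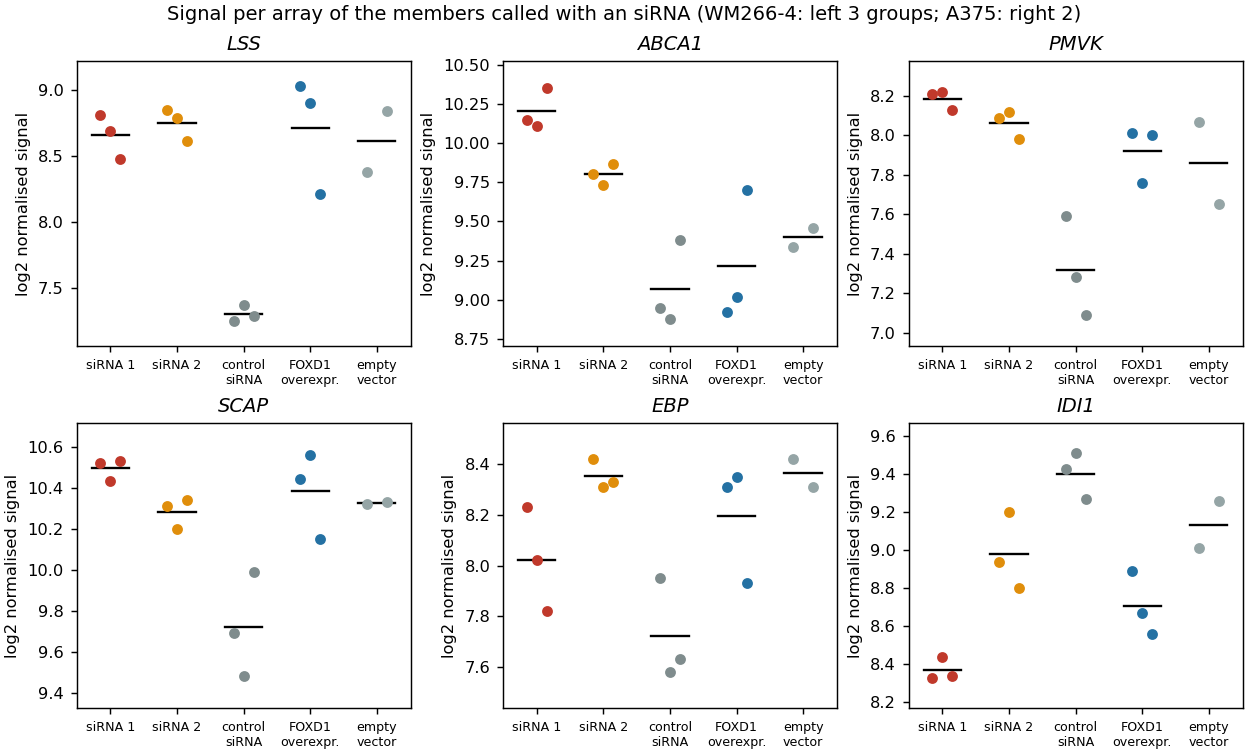
Log2 normalised signal of LSS, ABCA1, PMVK, SCAP, EBP and IDI1 on each array, by group, with WM266-4 groups on the left and A375 groups on the right of each panel. Points are arrays (3 per group, 2 for empty vector) and bars are group means. For LSS the control siRNA arrays sit between 7.25 and 7.37, below every other array, and for IDI1 the siRNA 1 arrays sit between 8.33 and 8.44, below every other array.

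The arrays of WM266-4 with the same replicate number deviated together, so the fit with the replicate number as a block is given where it changes a call. With the block, 5 of the 29 genes rose and 6 fell with siRNA 1, against 9.15% and 8.74% of all genes. The added genes that fell were HMGCS1, FDPS, SQLE, MSMO1 and INSIG2, and the added gene that rose was DHCR7. None of these 6 passed without the block, where their adjusted p was 0.0646 to 0.167. The block changed no call of the 5 genes above.

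HMGCS1, which makes the substrate of the rate-limiting step, was at 8.85, 9.08 and 9.13 with siRNA 1, against 9.52, 10.05 and 9.88 with control siRNA. The groups did not overlap, and the difference was -0.80 (adjusted p = 0.0752, with the block 0.00348). SQLE, the squalene epoxidase, was at 10.17, 10.51 and 10.40 with siRNA 1, against 10.93, 11.29 and 10.95 with control siRNA. In both groups replicate 2 was the highest array, and the difference was -0.69 (adjusted p = 0.0646, with the block 0.00985). A second SQLE probe differed by -0.61.

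MSMO1, which takes part in the removal of methyl groups from the sterol ring, was at 9.74, 9.98 and 9.63 with siRNA 1, against 10.43, 10.52 and 10.26 with control siRNA (-0.62, adjusted p = 0.164, with the block 0.00474). Again replicate 2 was highest and replicate 3 lowest in both groups, and the other MSMO1 probes differed by -0.11 and -0.39. FDPS, which makes farnesyl diphosphate, differed by -0.57 (adjusted p = 0.123, with the block 0.012). INSIG2, which retains SCAP, differed by -0.64 (adjusted p = 0.0741, with the block 0.0235).

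DHCR7, which catalyses a last step to cholesterol, was at 8.63, 8.07 and 8.25 with siRNA 1, against 7.74, 7.73 and 7.78 with control siRNA. The groups did not overlap, and the difference was 0.57 (adjusted p = 0.167, with the block 0.0364). A second DHCR7 probe differed by 0.50. Without overexpression replicate 3, which enters the fit through the shared estimate of the spread, the counts were 5 higher and 5 lower: DHCR7 was added to the first and HMGCS1, FDPS, SQLE and MSMO1 to the second. In that fit 7.66% of all genes were higher and 7.31% lower.

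**Figure D2:**
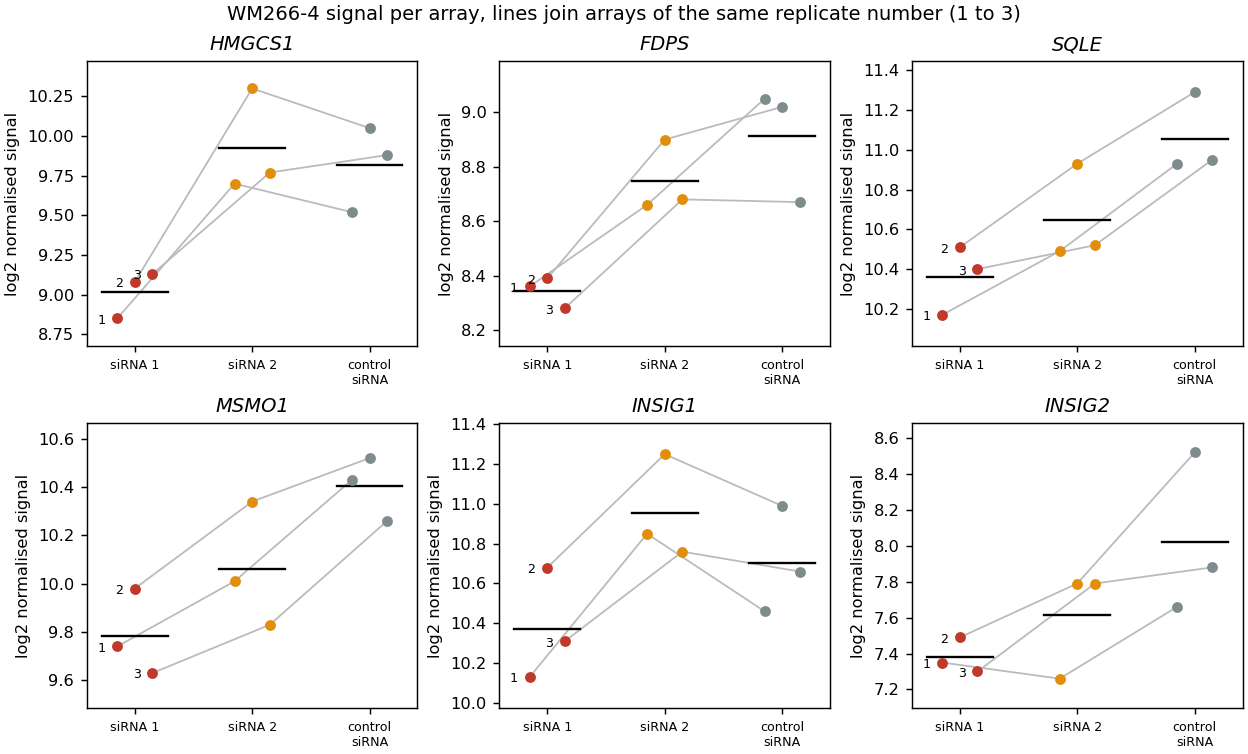
Log2 normalised signal of HMGCS1, FDPS, SQLE, MSMO1, INSIG1 and INSIG2 on the 9 WM266-4 arrays, with siRNA 1, the arrays labelled siRNA 2 and control siRNA from left to right. Grey lines join arrays of the same replicate number and black bars are group means. For SQLE replicate 2 is the highest array of each group, at 10.51, 10.93 and 11.29.

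The other genes were not called with siRNA 1 with or without the block. In the mevalonate pathway MVK differed by -0.10 and MVD, which makes isopentenyl diphosphate, by -0.53 (adjusted p = 0.85 and 0.234). Between lanosterol and cholesterol, CYP51A1, TM7SF2, NSDHL, HSD17B7 and SC5D, enzymes that trim, reduce or desaturate the sterol ring, differed by -0.32 to -0.05. The sterol isomerase EBP differed by 0.31 (adjusted p = 0.252) and INSIG1 by -0.33 (adjusted p = 0.445). ACLY, ACACA, FASN and SCD, the enzymes from citrate to unsaturated fatty acids, differed by -0.31 to 0.04. ACLY lay below control on every siRNA 1 array, at 10.65 to 10.79 against 10.97 to 11.10 (-0.31, adjusted p = 0.132). STARD4 and NPC1, which move sterols inside the cell, differed by 0.06 and 0.11. Without regard to the test, 5 genes lay above and 9 below control on every array, against 17.1% and 15.6% of all genes.

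In the arrays labelled FOXD1 siRNA 2, 5 of the 29 genes rose over control siRNA and 0 fell, while 3.96% of all genes rose and 2.64% fell (6.61% in all). By limma's unadjusted p under 0.05, 7 were higher and 1, IDI1, was lower, against 11% and 9.06% of all genes. The genes that rose were PMVK, LSS, SCAP and ABCA1, as with siRNA 1, and EBP. The same control arrays enter both comparisons, so a low or high control value moves both. The median of the 29 genes was 0.07, against 0.00 over all genes.

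LSS was at 8.85, 8.79 and 8.61 in the arrays labelled siRNA 2, against 7.25, 7.37 and 7.29 with control siRNA, a 2.73-fold difference (1.45, SE 0.198, limma adjusted p = 0.00057). The other LSS probes differed by 0.11 and -0.19, and with the mean of the probes the difference was 0.45 (adjusted p = 0.122). PMVK was at 8.09, 8.12 and 7.98, against 7.59, 7.28 and 7.09 with control siRNA (0.74, adjusted p = 0.00976). Neither LSS nor PMVK overlapped with control.

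ABCA1 was at 9.80, 9.73 and 9.87 in the arrays labelled siRNA 2, against 8.95, 8.88 and 9.38 with control siRNA (0.73, SE 0.194, limma adjusted p = 0.0374). SCAP was at 10.31, 10.20 and 10.34, against 9.69, 9.48 and 9.99 with control siRNA (0.56, adjusted p = 0.0379). EBP, which shifts a double bond within the sterol ring, was at 8.42, 8.31 and 8.33, against 7.95, 7.58 and 7.63 with control siRNA (0.63, adjusted p = 0.0265). None of these 3 genes overlapped with control, but their calls were less stable. EBP lost its call under 5 of 26 other settings, ABCA1 under 7 and SCAP under 9, with adjusted p up to 0.106, 0.139 and 0.156. Every loss of EBP and ABCA1 came from leaving out 1 array, and SCAP was lost also with median scaling in place of quantile normalization (adjusted p = 0.0741).

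IDI1 was at 8.94, 9.20 and 8.80 in the arrays labelled siRNA 2, against 9.43, 9.51 and 9.27 with control siRNA. It was lower on every array and was not called (-0.42, adjusted p = 0.107). DHCR7 and SREBF1 were higher on every array and were not called (0.56 and 0.54, adjusted p = 0.224 and 0.181). The replicate block changed no call of the 29 genes here, with 5.93% of all genes higher and 4.46% lower, 1614 genes with the block against 1027 without it. With the block in the 9 WM266-4 arrays alone, a setting added after seeing the data, IDI1 fell (adjusted p = 0.0476) and DHCR7 rose (adjusted p = 0.0332). In that fit 6.07% of all genes were higher and 4.5% lower. The second DHCR7 probe differed by 0.26 in the arrays labelled siRNA 2.

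The 21 other genes differed by -0.41 to 0.30 in the arrays labelled siRNA 2. SQLE differed by -0.41, INSIG2 by -0.41 and MSMO1 by -0.35, each overlapping with control. Without regard to the test, 7 of the 29 genes lay above and 1 below control on every array, against 13.8% and 11.9% of all genes. HMGCS1 differed by 0.11, INSIG1 by 0.25 and SCD by 0.22. FASN differed by 0.26, ACACA by -0.24 and ACLY by 0.01.

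**Figure D3:**
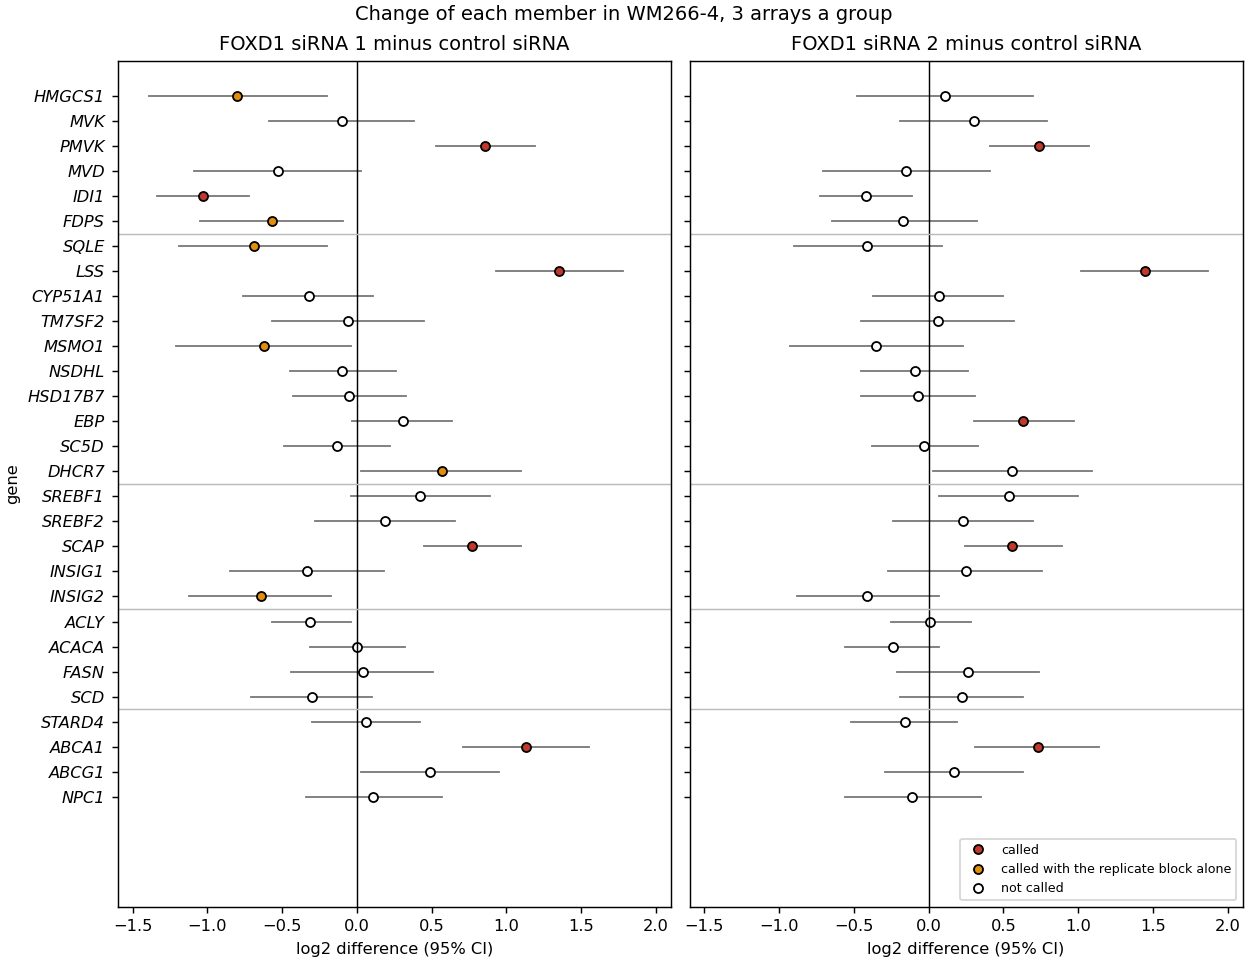
Log2 difference from control siRNA of each of the 29 genes with its 95% confidence interval, for siRNA 1 (left) and for the arrays labelled siRNA 2 (right), 3 arrays a group. Red points are called, orange points are called with the replicate block alone and open points are not called; grey lines divide the roles. LSS lies at 1.35 and 1.45, ABCA1 at 1.13 and 0.73, and HMGCS1 at -0.80 and 0.11.

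The direct comparison of siRNA 1 with the arrays labelled siRNA 2 uses the control arrays only in the shared estimate of the spread. Of the 29 genes 0 rose and 1 fell, IDI1, while 1.75% of all genes rose and 3.77% fell (5.52% in all). IDI1 was at 8.33, 8.44 and 8.34 with siRNA 1, against 8.94, 9.20 and 8.80 in the arrays labelled siRNA 2 (-0.61, SE 0.144, limma adjusted p = 0.0226). The call was lost without siRNA 1 replicate 1 or 3, without replicate 1 or 2 of the arrays labelled siRNA 2 (adjusted p 0.0563 to 0.101), and with median scaling (adjusted p = 0.0875). By unadjusted p under 0.05, 0 genes were higher and 5 lower, against 8.06% and 9.25% of all genes. Of the 29 differences 20 were below 0, with a median of -0.12 against 0.01 over all genes. On every array 3 genes lay higher and 9 lower, against 12.6% and 12.7% of all genes.

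With the replicate block, 0 genes rose and 4 fell, against 3.27% and 5.22% of all genes: IDI1 and in addition HMGCS1, INSIG1 and SCD. HMGCS1 was at 8.85, 9.08 and 9.13 with siRNA 1, against 9.70, 10.30 and 9.77 in the arrays labelled siRNA 2 (-0.90, adjusted p = 0.0786, with the block 0.00383). The groups did not overlap. INSIG1, a target of the SREBP factors that also restrains them, was at 10.13, 10.68 and 10.31, against 10.85, 11.25 and 10.76 (-0.58, adjusted p = 0.219, with the block 0.0124). SCD, which puts the double bond into fatty acids, was at 11.31, 11.56 and 11.56, against 11.74, 12.28 and 11.99 (-0.53, adjusted p = 0.147, with the block 0.0249). Within each replicate number HMGCS1, INSIG1 and SCD were lower with siRNA 1.

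The genes that rose with each reagent did not pass this test of the difference. PMVK differed by 0.12 (95% confidence interval -0.21 to 0.45), LSS by -0.09 (-0.52 to 0.33), SCAP by 0.21 (-0.11 to 0.53) and ABCA1 by 0.40 (-0.01 to 0.82). For ABCA1 every siRNA 1 array lay above every array labelled siRNA 2. The EBP difference was -0.33 (-0.66 to 0.01).

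FOXD1 overexpression was compared with empty vector in A375, where every value rests on the replaced array of empty vector replicate 1 and where FOXD1 itself was not called. Of the 29 genes 2 rose and 0 fell, while 3.69% of all genes rose and 3.49% fell (7.17% in all). By unadjusted p under 0.05, 5 were higher and 4 lower, against 10.8% and 11.6% of all genes. The median of the 29 genes was 0.06, against 0.00 over all genes.

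SC5D encodes the desaturase that makes the substrate of DHCR7. Its signal was 10.07, 9.95 and 9.51 with overexpression, against 9.05 and 8.77 with empty vector. SC5D was 1.91-fold higher (0.93, SE 0.186, limma adjusted p = 0.0107). ACACA, the acetyl-CoA carboxylase that commits carbon to fatty acids, was at 10.14, 10.23 and 10.29, against 9.83 and 9.44 with vector (0.59, SE 0.164, adjusted p = 0.0452), and a second ACACA probe differed by 0.42. ACACA was not called without empty vector replicate 2 (0.39, adjusted p = 0.356), nor without overexpression replicate 1, 2 or 3 (adjusted p = 0.064, 0.0967 and 0.0858), and it was also lost when single WM266-4 arrays were left out (adjusted p 0.0519 to 0.0593). SC5D was lost without empty vector replicate 2 (0.79, adjusted p = 0.128). Both were lost in a fit of the A375 arrays alone (adjusted p = 0.0932 and 0.168) and with the repeated intensity column used as deposited, where 0 of the 15544 genes were called.

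On every array 5 genes lay above and 4 below the vector arrays, against 17.7% and 18.2% of all genes, and most of these were not called. SREBF1 was at 8.96, 9.43 and 9.01 with overexpression, against 9.62 and 10.05 with vector (-0.70, adjusted p = 0.101), and another of its probes differed by -0.91. INSIG2 was at 6.88, 6.85 and 7.38, against 7.55 and 7.74 with vector (-0.61, adjusted p = 0.161). IDI1 was at 8.89, 8.67 and 8.56, against 9.01 and 9.26 with vector (-0.43, adjusted p = 0.128). TM7SF2, a sterol reductase, was at 7.30, 6.53 and 6.44, against 5.76 and 6.40 with vector (0.67, adjusted p = 0.148). ABCG1 differed by 0.55 (adjusted p = 0.189), with -0.25 for another of its probes, and ACLY by 0.16 (adjusted p = 0.566).

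Overexpression replicate 3 was the lowest of its group for 20 of the 29 genes (69%), against 38.1% of all genes. By role it was the lowest for 4 of 6 mevalonate pathway genes, 9 of 10 from squalene to cholesterol, 2 of 5 of sterol sensing, 3 of 4 of fatty acid synthesis and 2 of 4 of transport. HMGCS1 was at 10.30, 10.02 and 8.98 with overexpression, against 9.66 and 9.63 with vector. FASN, the fatty acid synthase, was at 12.33, 12.46 and 11.52, against 12.43 and 12.74 with vector. MSMO1 was at 10.52, 10.10 and 9.09, against 9.92 and 9.72 with vector. For 6 genes (FDPS, HMGCS1, INSIG1, LSS, MSMO1 and SCAP) replicates 1 and 2 lay above both vector arrays and replicate 3 below both, a share of 20.7% against 4% of all genes. The counts around replicate 3 rest on that array alone. They were not among the planned comparisons and were not tested.

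Replicate 1 lay above both vector arrays for 16 of the 29 genes, replicate 2 for 14 and replicate 3 for 8 (55.2%, 48.3% and 27.6%), against 37.5%, 37% and 37% of all genes. Replicate 3 lay below both for 19 (65.5%), against 38.5% of all genes. Without replicate 3 the median of the 29 genes was 0.19, 19 of 29 differences were above 0, against 16 with it, and 2 genes were called, SC5D and NSDHL (0.68, adjusted p = 0.0253), while 3.67% of all genes were higher and 3.08% lower. NSDHL, a dehydrogenase of the sterol ring, was at 9.44, 9.39 and 8.83 with overexpression, against 8.96 and 8.51 with vector.

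**Figure D4:**
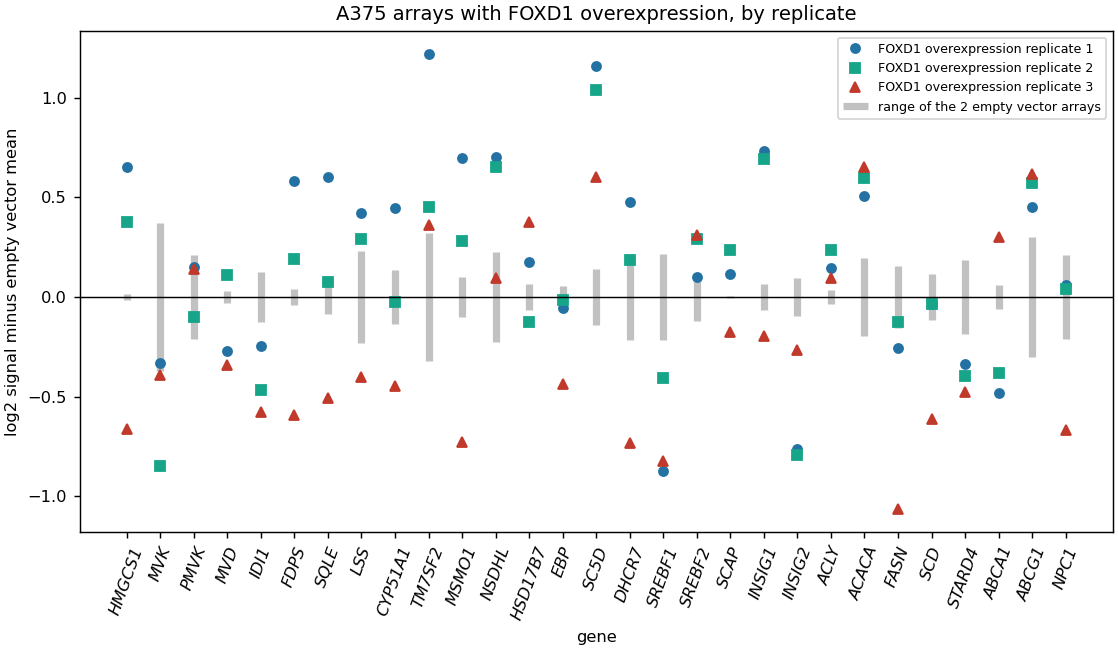
Log2 signal of each of the 29 genes on the 3 A375 overexpression arrays minus the mean of the 2 empty vector arrays, with the range of the vector arrays as grey bars. Replicate 3 (red triangles) is the lowest overexpression array for 20 of 29 genes.

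Of the markers of cell identity, 3 were called with overexpression. Of 6 measured melanocyte markers MLANA (1.95) and S100B (1.05) rose (limma adjusted p = 0.0192 and 0.0195) and 4 were not called: TYR differed by 0.44, SOX10 by 0.01, MITF by -0.15 and PMEL by -0.99. The summed signal of the 6 markers ranged over 15400 to 30100 with overexpression and over 22500 to 23400 with vector. Of 5 immune markers 2 were measured, and CD14 rose (1.66, adjusted p = 0.0114) while LYZ was detected on 0 of 5 A375 arrays. Of 2 keratinocyte and 4 endothelial markers measured 0 were called here. In the comparisons of the siRNA groups no marker of these lists was called without the replicate block. With the block PMEL fell with siRNA 1 (-0.72, adjusted p = 0.0161) and in the arrays labelled siRNA 2 (-0.67, adjusted p = 0.0353), and CD14 fell with siRNA 1 (-0.74, adjusted p = 0.0135). The summed signal of CD14 and LYZ was 106 to 262 with overexpression and 68.4 to 72.3 with vector. Their part in the values above was not tested.

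The remaining genes were not called with overexpression. LSS, PMVK, SCAP, ABCA1 and EBP, which were called in WM266-4, differed by 0.10, 0.06, 0.06, -0.19 and -0.17 (adjusted p 0.623 to 0.88). MVK differed by -0.52, STARD4 by -0.40 and INSIG1 by 0.41, with -0.43 for its other probe. The other 10 genes (MVD, FDPS, SQLE, CYP51A1, HSD17B7, DHCR7, SREBF2, FASN, SCD and NPC1) differed by -0.48 to 0.23.

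A375 cells with empty vector were set against WM266-4 cells with control siRNA for the levels of these genes in the lines. Here line and kind of control cannot be told apart. Of the 29 genes 8 were higher in A375 and 1 lower, while 11.8% of all genes were higher and 9.09% lower (20.9% in all). LSS was at 8.38 and 8.84 in A375, against 7.25, 7.37 and 7.29 in WM266-4 with control siRNA (1.31, SE 0.221, limma adjusted p = 0.00103). The A375 arrays lay near the WM266-4 arrays with siRNA 1 and those labelled siRNA 2. Its other probes differed by 0.60 and -0.18, and with the mean of the probes the difference was 0.58 (adjusted p = 0.0374). SREBF1 was at 9.62 and 10.05, against 8.09, 9.01 and 8.71 in WM266-4 (1.23, adjusted p = 0.0029). SCD was at 12.84 and 13.07, against 11.61, 12.03 and 11.72 (1.17, adjusted p = 0.00166).

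DHCR7 was at 8.58 and 9.01 in A375, against 7.74, 7.73 and 7.78 in WM266-4 (1.04, limma adjusted p = 0.0162). FASN was higher by 0.77, EBP by 0.65, SCAP by 0.60 and PMVK by 0.54 (adjusted p = 0.0395, 0.0175, 0.0203 and 0.0394). These 4 calls were lost under 5, 4, 5 and 8 of 22 other settings, in that order. FASN differed by 0.32 with the repeated column as deposited (adjusted p = 0.571), and PMVK by 0.33 without empty vector replicate 1. LSS and SCD kept their calls under all 22 settings, while DHCR7 and SREBF1 lost theirs under 2. NSDHL was at 8.96 and 8.51 in A375, against 9.54, 9.51 and 9.47 in WM266-4 (-0.77, adjusted p = 0.00918). With the vector arrays left out in turn the number higher was 4 in each case, against 8.63% of all genes without empty vector replicate 1 and 6.89% without replicate 2. Without empty vector replicate 2 NSDHL was not called. On every array 11 genes lay higher and 6 lower in A375, against 25.2% and 23.3% of all genes. The 20 genes not called included ABCA1 (0.33) and IDI1 (-0.27).

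**Figure D5:**
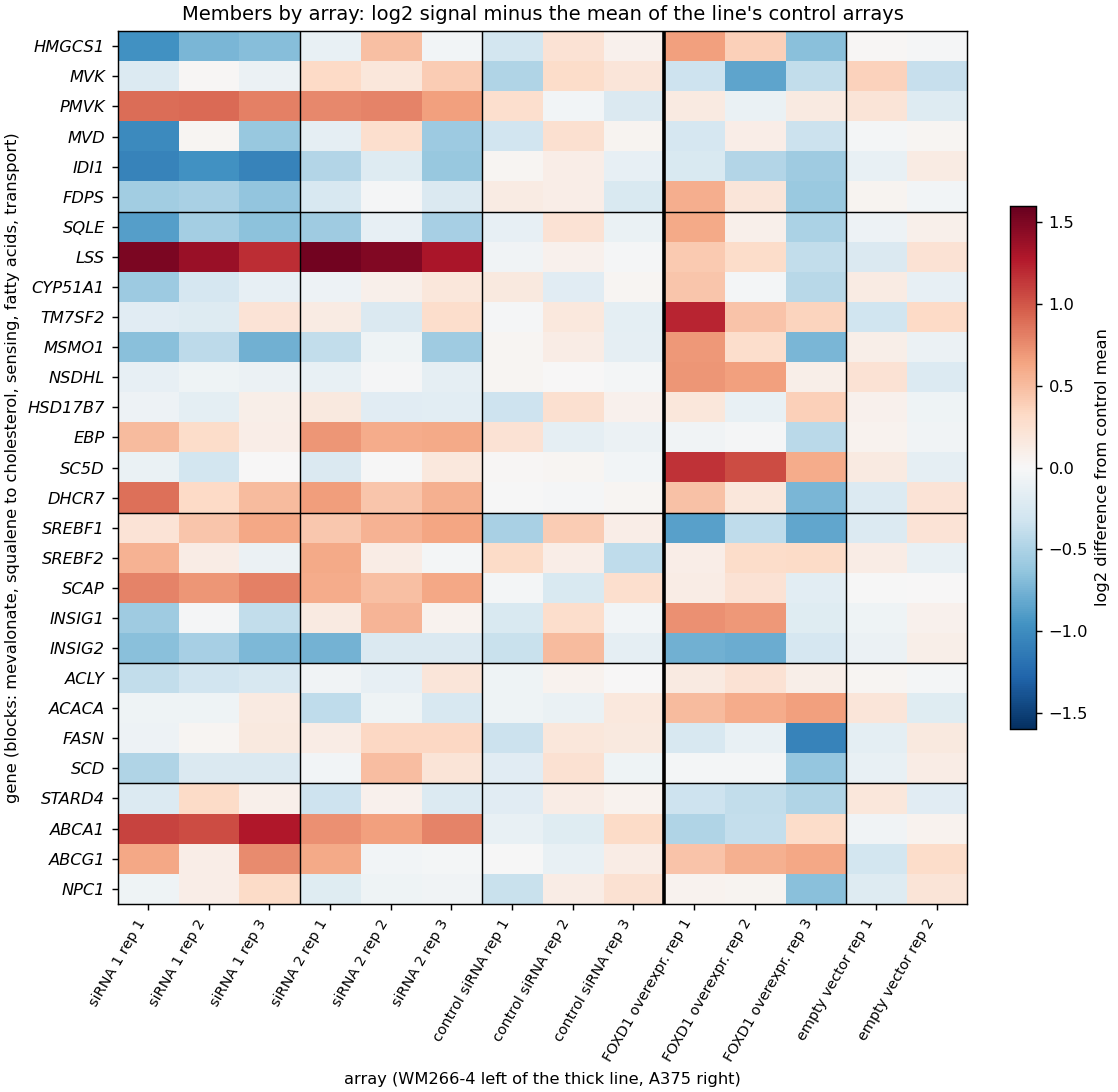
Log2 signal of the 29 genes (rows, ordered by role) on the 14 arrays (columns) minus the mean of the control siRNA arrays for WM266-4 and of the empty vector arrays for A375; the thick line divides the lines, and red is above and blue below the controls. In the columns of siRNA 1 and of the arrays labelled siRNA 2, LSS, ABCA1, PMVK and SCAP are red and IDI1 is blue. The column of overexpression replicate 3 is blue for HMGCS1, MSMO1, DHCR7 and FASN.

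Other genes around these pathways were counted from lists of their own, with the shares of all genes given above as background. Of 12 measured regulators of SREBP, LXR and sterol receptors, 2 rose and 1 fell with siRNA 1, and 1 rose and 1 fell in the arrays labelled siRNA 2. The gene that fell with siRNA 1 was PAQR3, a Golgi protein that anchors SCAP (5.31 with siRNA 1, against 7.46 with control siRNA, a difference of -2.15, limma adjusted p = 2.2e-06). PAQR3 also fell relative to the arrays labelled siRNA 2 (-2.31). FBXW7, the ubiquitin ligase adaptor that removes nuclear SREBP, rose with siRNA 1 (0.68, adjusted p = 0.00705). MYLIP, an LXR target that degrades lipoprotein receptors, rose with siRNA 1 (0.60) and in the arrays labelled siRNA 2 (0.52, adjusted p = 0.00877 and 0.0332).

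NR1H3, which encodes an LXR receptor, was at a mean of 6.39 in the arrays labelled siRNA 2, against 7.78 with control siRNA (-1.39, limma adjusted p = 0.02). With siRNA 1 its difference was -0.84 (adjusted p = 0.115, with the block 0.00123). TMEM97, a sterol-regulated membrane protein, was lower with siRNA 1 than in the arrays labelled siRNA 2 (-0.97, adjusted p = 0.00503). With overexpression 1 of the 12 rose, RXRB, a partner of LXR (0.61, adjusted p = 0.0362).

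Of 14 other genes of sterol and isoprenoid synthesis 0 rose and 2 fell with siRNA 1. LBR, a nuclear envelope protein with sterol reductase activity, had a mean of 6.02 with siRNA 1, against 7.23 with control siRNA (-1.21, limma adjusted p = 0.000524). ICMT, which methylates prenylated proteins, differed by -0.48 (adjusted p = 0.0108). Both were also lower with siRNA 1 than in the arrays labelled siRNA 2 (-1.03 and -0.64). In the arrays labelled siRNA 2, GGPS1, which makes geranylgeranyl diphosphate, fell against control (-0.54, adjusted p = 0.0332). PDSS1, of ubiquinone synthesis, fell with overexpression (-0.91, adjusted p = 0.0108).

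Of 18 other genes of sterol transport and storage 1 rose and 1 fell with siRNA 1, GRAMD1A (0.61), a carrier of sterol from the plasma membrane, and NCEH1 (-0.63), a cholesterol ester hydrolase (limma adjusted p = 0.0486 and 0.0142). In the arrays labelled siRNA 2, STARD3NL fell (-0.65, adjusted p = 0.0101). Relative to those arrays siRNA 1 had higher GRAMD1B (0.82) and lower OSBPL8 (-0.63). With overexpression CAV1 (0.73) and OSBP (0.60) rose and LRP8, a lipoprotein receptor, fell (-0.85).

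Of 26 other genes of fatty acid synthesis 2 rose and 5 fell with siRNA 1. The falls were led by ELOVL4, an elongase of very long chains (-1.33), ACSL4, which activates polyunsaturated fatty acids (-1.06), and SCD5, a second desaturase (-0.91, limma adjusted p = 0.000131, 0.00128 and 0.00872). Each was lower also than in the arrays labelled siRNA 2 (-1.20, -0.75 and -1.33). SLC25A1, the carrier that exports citrate for fatty acid synthesis, had a mean of 8.72 in the arrays labelled siRNA 2, against 7.90 with control siRNA (0.81, adjusted p = 0.0126), the single call in that comparison. With overexpression SCD5 rose (0.85), and FADS2, a desaturase (-0.92), and ACSL1 (-0.80) fell.

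Of 18 genes of fatty acid oxidation 1 rose and 1 fell with siRNA 1, and likewise in the arrays labelled siRNA 2. CPT1A, which admits fatty acids to mitochondria, fell by 1.02 with siRNA 1 and by 1.04 in the arrays labelled siRNA 2 (limma adjusted p = 0.00218 and 0.00368). ECI2, an isomerase for unsaturated fatty acids, rose by 0.49 and 0.61 (adjusted p = 0.0219 and 0.0111). With overexpression DECR1, a reductase of the same route, rose (0.90, adjusted p = 0.0279). With the replicate block, siRNA 1 gave 3 rises and 3 falls among the regulators, 0 and 3 among the sterol and isoprenoid genes, 1 and 2 in transport and storage, 3 and 6 in fatty acid synthesis, and 3 and 1 in oxidation. In the same order, the arrays labelled siRNA 2 gave 2 and 1, 1 and 1, 0 and 1, 2 and 0, and 1 and 1 with the block. With the block 9.15% of all genes rose and 8.74% fell with siRNA 1. In the arrays labelled siRNA 2 these shares were 5.93% and 4.46%. Across the other settings tried, the 37 calls of genes named from these lists were kept in 837 cases and lost in 125.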

How the data were processed

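RNA of 14 samples was measured on Illumina bead arrays. The deposited intensity per probe is linear and not normalized, per the file headers, and a detection p-value per probe is deposited beside it. The authors also deposited log2 values. Apart from empty vector replicate 1, their rank correlation with the intensities of the same array was at least 0.9999. How the authors normalized them was not tested. No software or genome build used by the authors is named in the labels or headers, which give no chip or scan either. The intensities deposited for empty vector replicate 1 were within 1% of those of overexpression replicate 3 for 100% of probes (at most 7.37% for any other pair). They were replaced by the antilog of the authors' log2 values.

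Background was corrected by normexp from the detection p-values (offset 16), and arrays were quantile normalized (limma 3.58.1, R 4.3.3). Probes had a detection p under 0.05 on at least 2 arrays. The brightest named probe by mean stood for a gene. Names came from the platform annotation.

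A single limma fit held the 5 groups, with 9 residual degrees of freedom, and every adjusted p is from limma. The number of arrays limits the precision. The fit was tested on simulated data. Same-numbered WM266-4 arrays had correlated deviations in all 9 pairs (0.142 to 0.273, against -0.195 to -0.0466 for different numbers). The 2 pairs in A375 had -0.0295 and 0.038. Deviations from the group mean cancel within a group, so the values for same and different numbers are not independent. In A375 the deviations of the 2 vector arrays mirror each other, which limits that comparison. The alternatives were other background, offset, normalization, filter, probe and moderation choices, the authors' values, the arrays of 1 line, the replicate block and leaving out each array. Named are all members, FOXD1, FOXD2, and up to 3 called genes with the largest change per further list and comparison. Cell type markers and NR1H3 with siRNA 1 were named after their values were seen. The members and lists were chosen with earlier results of these data known. Motifs were searched in the 250 bases before each RefSeq start (Python 3.11.15; figures with matplotlib 3.10.9).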

Additional observations from a re-analysis of the deposited data

Results flagged for a closer look

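The change of IDI1 against control siRNA differed between the siRNA groups: it was -1.03 with siRNA 1 and -0.42 in the arrays labelled siRNA 2, and the difference of -0.61 passed limma's test of the difference itself (adjusted p = 0.0226, 0.0175 with the replicate block). This call was lost under 5 of 26 other settings, with limma adjusted p up to 0.101.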

How the results depend on the processing

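No call of the 29 genes reversed its direction under any alternative. With siRNA 1, the number of genes that fell, 1 in the fit as reported, was 5 without background correction, with the authors' values and with the WM266-4 arrays alone, 3 with offset 50 and with trend and robust moderation (7.33%, 7.41%, 6.74%, 7.43% and 7% of all genes in that order), and 6 with the replicate block in each line or in WM266-4 alone (a setting added after seeing the data). With the blocks 8.74% and 8.83% of all genes fell. Leaving out 1 array gave 1 to 5, the 5 without overexpression replicate 3 (7.31% of all genes). In the arrays labelled siRNA 2 the number that fell was 0 as reported. It was 1 (IDI1) without background correction, with offset 50, with the authors' values and with the block in WM266-4 alone. In these settings 3.87%, 3.8%, 3.85% and 4.5% of all genes fell, in that order. The number that rose was 2 to 5 when 1 array was left out, against 2.29% to 4.77% of all genes. It was 2 without control replicate 2 or any array labelled siRNA 2, against 2.29% to 2.71% of all genes. All genes called there were 1614 and 1643 with the block in each line and in WM266-4 alone, and 559 (without control replicate 2) to 1269 with 1 array left out. For siRNA 1 against control, leaving out 1 array gave 1314 (without control replicate 2) to 2327 genes.

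For siRNA 1 minus siRNA 2, the number that fell was 1 as reported. It was 2 without background correction and with the arrays of 1 line, 3 with the authors' values, 0 with median scaling and 4 with either block. In these settings 4.44%, 3.75%, 4.46% and 2.75% of all genes fell, in that order, and 5.22% and 5.11% with the blocks. With 1 array left out the number was 0 to 2, against 2.29% to 4.26% of all genes. All genes called were 1319 and 1297 with the blocks, against 858, and 477 (without siRNA 1 replicate 1) to 1009 with 1 array left out. With overexpression, the number that fell was 0 as reported. It was 1 without background correction, with the authors' values and with moderation by trend (SREBF1 in each) and with the block (INSIG2). In these settings 5.03%, 5.14%, 4.56% and 4.55% of all genes fell, in that order. The number that rose was 2 as reported. It was 1 with median scaling and with the mean of probes, and 0 with the arrays of 1 line and with the repeated column as deposited. In these settings 2.52%, 3.42%, 0.733% and 0% of all genes rose, in that order. Leaving out empty vector replicate 2 leaves 1 vector array, against which SC5D differed by 0.79 and ACACA by 0.39. All genes called were 207 with the arrays of 1 line, 0 with the repeated column, and 143 (without empty vector replicate 2) to 1105 with 1 array left out, against 1115. The median of the 29 genes was -0.14 without overexpression replicate 1 to 0.19 without replicate 3. In A375 same-numbered arrays did not deviate together, and overexpression replicate 3 has no vector partner and no weight in the block there: it gave 3 genes that rose and 1 that fell (5.17% and 4.55% of all genes). For A375 against WM266-4, the number lower was 3 with the mean of probes, the number higher 4 and the median -0.01 with the repeated column. Among all genes 8.8% were lower with the mean of probes and 8.31% higher with the repeated column. With 1 array left out the number higher was 4 to 8, the number lower 0 to 2 and all genes called 1775 (without empty vector replicate 2) to 3577. With both vector arrays kept and 1 other array left out, 8.48% to 13.1% of all genes were higher and 6.83% to 9.9% lower. The 4, the 0 and the 1775 come from fits that leave 1 vector array. Without empty vector replicate 2, NSDHL differed by -0.54. The number of arrays limits these values, and the cause of each shift was not tested.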
